A study of Homo sapiens with 3 samples.

Results

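The genes described are 8 receptors that direct where T cells travel and settle: the chemokine receptors CXCR4, CCR7, CCR4, CCR9, CXCR3 and CXCR5, the lipid receptor S1PR1 and the integrin chain ITGAE. They were chosen by name, with earlier results of these data known, out of 20037 protein-coding genes in the RefSeq annotation of GRCh38. Each was followed over its annotated span and 50 kb on each side. The peaks came from ChIP-seq of 2 histone marks in ALL-SIL, a long-established human line grown from T-ALL (T-cell acute lymphoblastic leukaemia), a cancer of immature T cells, with 1 library per mark and 1 input library. The labels name no drug, time course or genetic change between the libraries, and the groups differ only by antibody (H3K4me1, H3K4me3 or none). H3K4me3 marks promoters that are open for transcription, and H3K4me1 marks enhancers and the edges of promoters. The labels give no replicate, so no value below has a replicate error and no difference was tested. A peak in such a bulk culture does not tell in what share of the cells the mark is present.

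Chemokine receptors are membrane proteins that sense small secreted proteins, the chemokines, and pull the cell along the gradient through inhibitory G proteins. In the thymus CXCR4, CCR7 and CCR9 guide precursors between compartments, and S1PR1 lets finished T cells leave tissue for the blood. CXCR3, CCR4 and CXCR5 are better known from effector, skin-homing and follicular helper T cells, and ITGAE, also called CD103, holds T cells in epithelium by binding E-cadherin.

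The H3K4me1 library held 34813455 tags after filtering, the H3K4me3 library 30823016 and the input 18859011. The lists held 62087 H3K4me1 peaks, with a median fold over local background of 2.37, and 11100 H3K4me3 peaks, with a median of 4.53. The fold and the −log10 q of a peak are the authors' values, averaged over the whole region, and serve here only to describe and rank peaks within 1 list. The identity of the line was checked against lineage markers. All 8 T-lineage markers, among them BCL11B (12.3 kb) and CD3D (4.74 kb), carried H3K4me3, beside 53.4% of all protein-coding genes. At 3 of the 8, TCF7, CD3D and CD3G, the peak also lay within 1 kb of an end of another gene. For CD3D and CD3G that gene was the other of the pair. H3K4me3 was at 1 of 4 B-lineage markers (0.197 kb at PAX5), 0 of 4 myeloid markers and 1 of 4 natural killer markers (2.13 kb at NKG7, at the end of a noncoding gene).

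A gene was taken as marked where a peak touched its span or the 1 kb on each side. H3K4me3 was at 6 of the 8 receptor genes, CXCR4, CCR7, CCR4, S1PR1, CCR9 and ITGAE, while CXCR3 and CXCR5 had H3K4me1 alone. H3K4me3 was at 53.4% of all protein-coding genes (10701), and at 44.7% of those under 20 kb, as 7 of the members are. H3K4me1 was at all 8 members, at 63.4% of all protein-coding genes and at 52.3% of those under 20 kb. No member had neither mark, which was the state of 32.7% of protein-coding genes, and H3K4me1 alone was the state of 13.9% of them (11.4% of those under 20 kb). The ITGAE peak lay at the end of another gene inside it, so that 5 members had an H3K4me3 peak away from the ends of other protein-coding genes. Where a −log10 q of 10 or more was required, H3K4me3 was at 3 members, CCR7, CCR4 and S1PR1, and H3K4me1 at 0. That limit kept 4828 of 11100 H3K4me3 peaks and 1750 of 62087 H3K4me1 peaks. The shares of all protein-coding genes at that limit were not computed, so these counts cannot be read as high or low.

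**Figure D1:**
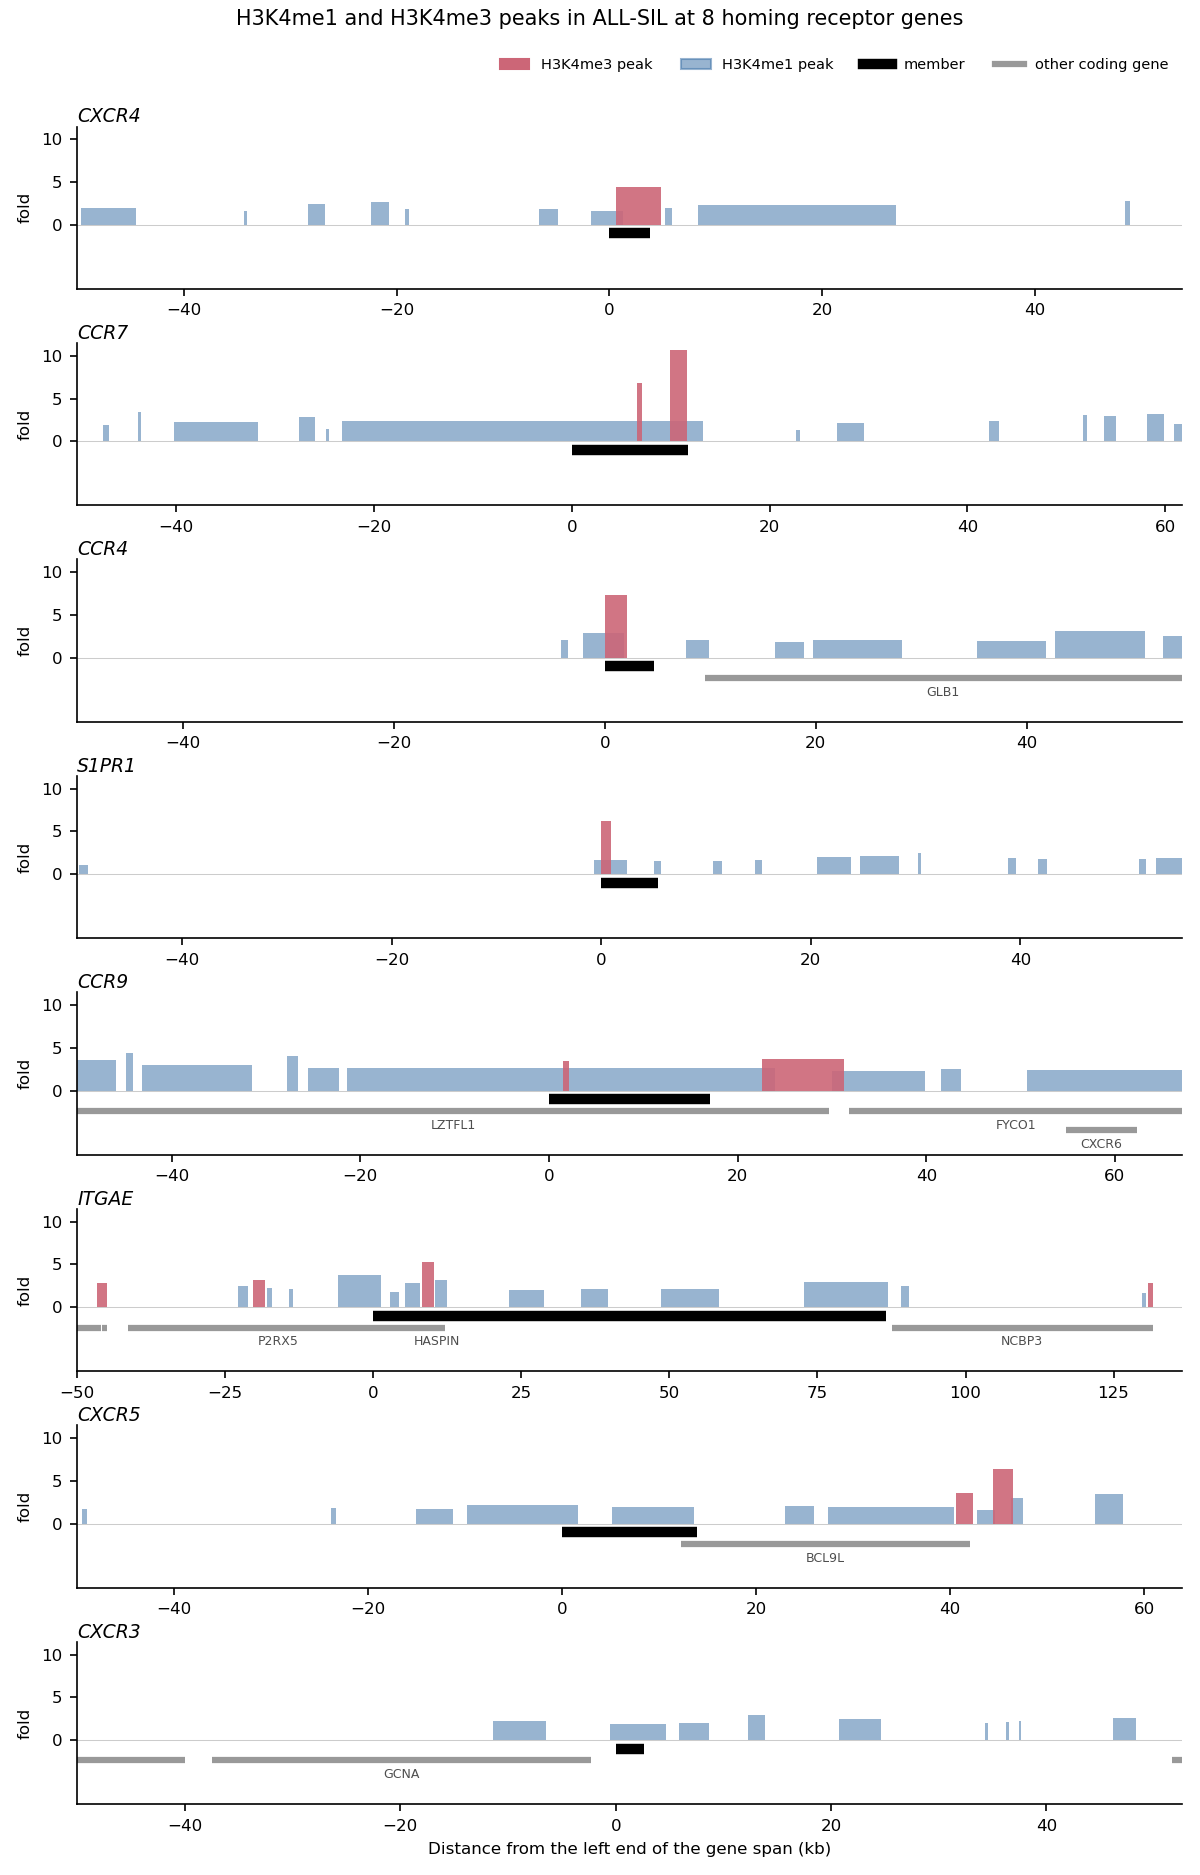
Peaks at the 8 receptor genes, each panel running from 50 kb left of the gene span to 50 kb right of it. The horizontal axis is the distance from the left end of the gene in kb. The height of each block is the peak's fold over local background (red for H3K4me3, blue for H3K4me1). Black bars are the members and grey bars other protein-coding genes, whose names are left out at the panel edges. The H3K4me3 blocks over CCR7 reach 10.7 and 6.77, CXCR3 has no red block in its panel, and the red blocks of CXCR5 lie near the far end of BCL9L.

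CXCR4, the receptor for CXCL12, which keeps precursors in bone marrow and thymus, had the longest H3K4me3 peak over a member. It ran 4.26 kb (chr2:136114920-136119182) at a fold of 4.43, covered 85.0% of the gene and ranked 238 by length among the 11100 H3K4me3 peaks. The gene lies on the minus strand, and the peak reached from 1033 bp before the outermost start to 3229 bp after it. H3K4me1 flanked this peak more than it overlapped it, with 15.7% of the H3K4me3 peak covered. A peak of 2.96 kb at a fold of 1.63 met its left edge, and one of 0.66 kb at a fold of 1.98 stood beyond its right edge, 1397 bp before the start. Farther upstream, 4568 bp from the gene, H3K4me1 formed a block of 18.6 kb (fold 2.29, rank 228 of 62087 by length). No other protein-coding or lncRNA gene lay in the CXCR4 window, so its 10 H3K4me1 peaks touched CXCR4 or no gene.

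CCR7, the receptor for CCL19 and CCL21, which leads T cells into lymph nodes and is known for the spread of T-ALL to the central nervous system, had the H3K4me3 peak of the highest fold. That peak of 1.74 kb (chr17:40563695-40565436) at the right end of the gene had a fold of 10.7 and a −log10 q of 25.9, above 98.7% of H3K4me3 peaks by fold. A shorter one of 0.462 kb (chr17:40560394-40560855, fold 6.77) lay inside the gene. Both sat within 1 H3K4me1 peak of 36.4 kb (fold 2.37) that covered the whole gene and ranked 36 by length in its list. CCR7 thus combined a short, high H3K4me3 region with a long H3K4me1 region, where CXCR4 had a long H3K4me3 region of moderate fold. Of the 13 H3K4me1 peaks in the CCR7 window, 10 touched no gene.

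CCR4, the receptor for CCL17 and CCL22, had an H3K4me3 peak of 2099 bp (chr3:32951665-32953763) at a fold of 7.32, higher than 87.7% of H3K4me3 peaks. It began 21 bp after the start and covered 44.6% of the gene. An H3K4me1 peak of 3.90 kb (fold 2.84) lay over the start and covered 87.0% of the H3K4me3 peak. The window held 8 H3K4me1 peaks, of which 6 lay to the right in or at GLB1, a lysosomal enzyme gene, and 1 to the left touched no gene.

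S1PR1, the sphingosine 1-phosphate receptor of T cell exit, had 1.00 kb of H3K4me3 (chr1:101236825-101237826) at a fold of 6.23, from 194 bp before the start to 807 bp after it. The peak was wholly inside an H3K4me1 peak of 3.20 kb at a fold of 1.65, which is higher than 7.55% of H3K4me1 peaks. It also lay within 1 kb of the end of the lncRNA gene S1PR1-DT, and the data cannot assign it to 1 of the neighbours. S1PR1 had 12 H3K4me1 peaks in its window but the smallest share of it covered, 17.5%.

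CCR9, the receptor for CCL25, the chemokine of thymus and small intestine, had the shortest H3K4me3 total and the lowest fold of the 6 marked members, and the largest share of its window under H3K4me1 of all 8. Its H3K4me3 peak of 0.673 kb (chr3:45887523-45888195) had a fold of 3.50, above 27.1% of the list, and began 980 bp after the nearer of its RefSeq starts, just inside the reach of 1 kb. No H3K4me3 peak lay within 1 kb of its other start, 6.02 kb away. A single H3K4me1 peak of 45.3 kb (chr3:45864708-45909981, fold 2.65) covered the whole gene and ranked 23 by length among 62087. This peak also covered LOC124909374, a short lncRNA gene more than 19 kb left of CCR9. In the same window a far longer H3K4me3 peak of 8.64 kb (fold 3.66, rank 30 of 11100) lay over the end of LZTFL1, a ciliary transport gene whose span contains CCR9, and close to the end of FYCO1.

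ITGAE pairs with the beta chain ITGB7 to form the receptor for E-cadherin, and its start, at the right end of an 86.6 kb gene, had H3K4me1 without H3K4me3. The H3K4me1 peak there was 14.1 kb long at a fold of 2.94, contained the whole start window and also lay within 1 kb of an end of NCBP3. The H3K4me3 peak inside ITGAE, 1.99 kb at a fold of 5.22 (chr17:3722888-3724872), lay at the ends of HASPIN, a histone kinase gene nested in ITGAE, and of P2RX5. From the ITGAE start the nearest H3K4me3 peak was 44.3 kb away, at the end of NCBP3. H3K4me1 formed 8 separate peaks over ITGAE, of 1.43 to 14.1 kb, and covered 47.8% of it.

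CXCR3 and CXCR5 were the members with H3K4me1 and no H3K4me3. CXCR3, the receptor for the interferon-induced chemokines CXCL9, CXCL10 and CXCL11, lay whole inside an H3K4me1 peak of 5.21 kb (chrX:71615420-71620632) with a fold of 1.89 and a −log10 q of 1.05. The nearest H3K4me3 peak to its start was 82.9 kb away, outside the window. CXCR5, the CXCL13 receptor of B cell follicles, had H3K4me1 peaks of 11.4 kb (chr11:118874103-118885535, fold 2.14) over its left end and of 8.43 kb (chr11:118889017-118897445, fold 1.98) over its listed start, which together covered 72.5% of the gene. Both also lay within 1 kb of an end of LOC124902767, a lncRNA gene inside CXCR5, and the 8.43 kb peak covered the near end of BCL9L. The 2 H3K4me3 peaks in its window, 1.75 and 2.06 kb long, lay at the far end of BCL9L and beyond it, 31.1 kb or more from the CXCR5 start. Each of the own H3K4me1 peaks of CXCR3 and CXCR5 fell below the median fold of the H3K4me1 list. With peaks at or above the median fold of each list, H3K4me1 was at 3 members, CCR4, CCR9 and ITGAE, and CXCR3 and CXCR5 had neither mark. The shares of all protein-coding genes in these states at that limit were not computed.

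The overlap of the marks differed among the marked members. Of the 7 H3K4me3 peaks over members, 4 were wholly covered by H3K4me1 (both at CCR7, and those at S1PR1 and CCR9), against 9.78% of H3K4me3 peaks on the main chromosomes. In all, 6 of the 7 were touched by H3K4me1, against 46.8%, and the exception was the one at HASPIN in ITGAE. The covering peaks at CCR7 and CCR9 are among the longest of the list, and a broad region is called across internal dips, so coverage does not show that H3K4me1 is high at the centre of the H3K4me3 peak. The 17 H3K4me1 peaks over members had folds of 1.57 to 3.78, and the 7 H3K4me3 peaks of 3.50 to 10.7. These folds come from different lists and are given side by side only.

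H3K4me1 covered more of the receptor windows than of most gene windows. The median over the 8 members was 32.7% of the window, and over all protein-coding genes it was 3.98% (quartiles 0.686% and 10.7%). Every member was above the upper quartile of all genes. CCR9 had the largest share of any protein-coding gene, 80.7% of 117 kb, and remained first with windows of 25 or 100 kb on each side. Its neighbours shared the region: CXCR6, another chemokine receptor gene, ranked 3 with 77.7%, FYCO1 ranked 14 and LZTFL1 ranked 21. CCR7 had 50.1% (rank 64 of 20037), CXCR5 40.9% (rank 211), CCR4 33.2% (rank 484), CXCR4 32.2% (rank 528), ITGAE 28.4% (rank 803), CXCR3 20.9% (rank 1781) and S1PR1 17.5% (rank 2491). CXCR5 and CXCR3, without H3K4me3, fell inside the range of the marked members. With peaks at or above the median fold, CCR9 kept 72.3% and ranked 2, while CCR7 fell to 5.57% (rank 4655), CXCR5 to 3.56%, CXCR4 to 3.60% and S1PR1 to 0.269% (rank 13183), and the median of all genes was 1.36%. The high shares of CCR7, CXCR5, CXCR4 and S1PR1 rested on peaks below the median fold, as at CCR7, whose 36.4 kb peak had a fold higher than 49.7% of the list. Leaving out every peak at the end of another protein-coding or lncRNA gene left 6 of 9 peaks at CCR9 and 10 of 13 at CCR7. Among those removed was the longest peak of each, which also covers a short lncRNA gene. The shares became 19.6% at CCR9, 8.54% at CCR7 and 21.8% at CXCR5. Ranks among all genes with such peaks left out were not computed.

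**Figure D2:**
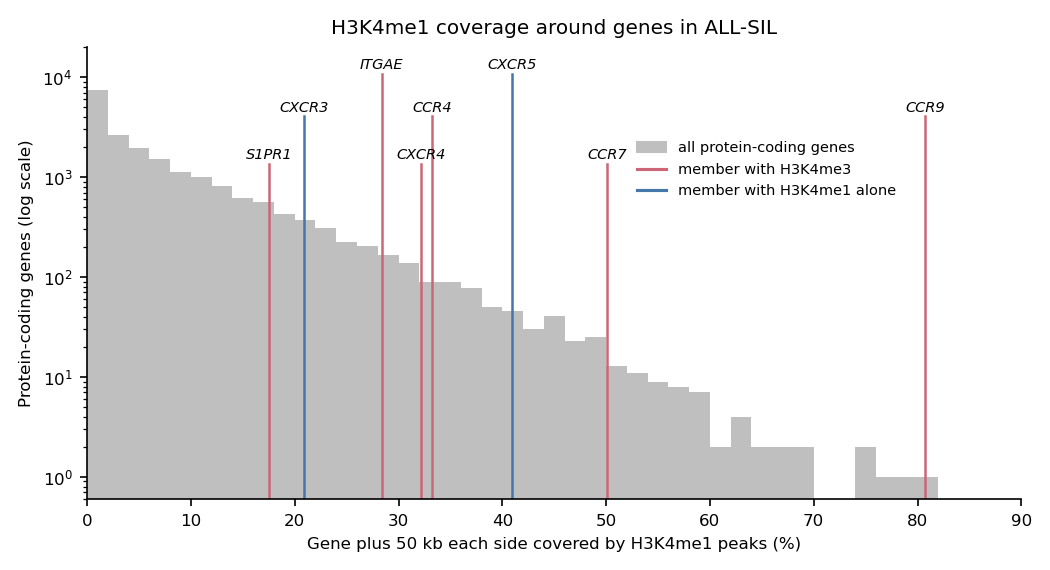
Share of each gene's window (gene plus 50 kb each side) covered by H3K4me1 peaks. Grey bars count protein-coding genes on a log axis, and vertical lines mark the members (red, with H3K4me3, which for ITGAE is the peak at HASPIN; blue, H3K4me1 alone). The members run from 17.5% at S1PR1 to 80.7% at CCR9, and the median of all genes is 3.98%.

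In number of peaks the members stood less far from other genes, with a median of 10 H3K4me1 peaks per window (range 8 at CCR4 to 13 at CCR7 and ITGAE) against 5 over all protein-coding genes. Of the 84 H3K4me1 peaks in the 8 windows, 17 touched the member itself, 9 lay at the end of another gene, 17 in the body of another gene and 41 in no gene. Those in no gene made up 10 of 13 peaks at CCR7, 9 of 10 at CXCR4, 9 of 12 at S1PR1 and 7 of 9 at CXCR3, while CCR9 and ITGAE, which lie among other genes, had 0.

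The sequence before the gene starts was compared next, because H3K4me3 in vertebrates is generally found at promoters rich in CpG, the cytosine-guanine step. RefSeq start windows of GRCh38.p14 (300 bases, from 250 before to 50 after a start) were matched for 7 members, all but CCR7, with 10 windows in all. The 250 bases before the start are shown for 5 of the genes, 5′ to 3′ in the direction of transcription with each CpG in capitals. They run from CpG-rich starts with H3K4me3 to CpG-poor starts with and without it.
CXCR4 (chr2:136118150-136118399, minus strand): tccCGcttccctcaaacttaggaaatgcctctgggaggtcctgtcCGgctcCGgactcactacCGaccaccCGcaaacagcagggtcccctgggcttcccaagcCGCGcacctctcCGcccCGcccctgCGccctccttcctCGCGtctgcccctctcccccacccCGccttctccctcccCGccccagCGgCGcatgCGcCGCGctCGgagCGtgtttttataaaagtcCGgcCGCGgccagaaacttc
S1PR1 (chr1:101236769-101237018, plus strand): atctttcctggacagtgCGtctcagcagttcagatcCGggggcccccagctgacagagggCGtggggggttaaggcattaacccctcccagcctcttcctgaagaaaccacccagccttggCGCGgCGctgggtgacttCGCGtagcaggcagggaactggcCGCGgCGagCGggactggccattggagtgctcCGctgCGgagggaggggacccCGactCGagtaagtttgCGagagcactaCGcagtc
CCR4 (chr3:32951394-32951643, plus strand): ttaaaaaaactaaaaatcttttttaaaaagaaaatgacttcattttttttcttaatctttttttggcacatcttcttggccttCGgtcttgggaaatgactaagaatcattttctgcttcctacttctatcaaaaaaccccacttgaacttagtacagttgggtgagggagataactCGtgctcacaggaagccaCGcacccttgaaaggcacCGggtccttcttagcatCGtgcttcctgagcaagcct
CCR9 (chr3:45886293-45886542, plus strand): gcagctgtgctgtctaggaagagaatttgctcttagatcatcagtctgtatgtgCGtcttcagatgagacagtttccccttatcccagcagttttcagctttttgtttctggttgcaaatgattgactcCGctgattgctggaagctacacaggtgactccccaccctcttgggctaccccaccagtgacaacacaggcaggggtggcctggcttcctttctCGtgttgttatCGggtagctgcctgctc
CXCR3 (chrX:71618512-71618761, minus strand): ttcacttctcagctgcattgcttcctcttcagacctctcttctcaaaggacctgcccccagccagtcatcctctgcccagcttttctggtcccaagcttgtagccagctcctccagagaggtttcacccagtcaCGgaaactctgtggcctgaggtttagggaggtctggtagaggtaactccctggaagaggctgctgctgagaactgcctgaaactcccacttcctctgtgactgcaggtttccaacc

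Over the whole windows, CXCR4 held 27 CpG at this start and S1PR1 23, close to the median of 27 for start windows with H3K4me3 within 1 kb. CCR4 held 6 and CCR9 4 and 6 at its starts, and all 3 of these windows fell in the lowest band (0 to 7 CpG). Of the 5784 protein-coding start windows in that band, 10.1% had H3K4me3 within 1 kb, against 51.3% with 8 to 21 CpG, 72.2% with 22 to 31 and 69.2% with 32 or more. CCR4 and the nearer CCR9 start thus belonged to the CpG-poor starts with the mark, the CCR9 start just inside the limit of 1 kb. CXCR3 held 1 CpG, in the same band, and had none. CXCR5 with 9 and ITGAE with 10 CpG had none, in the band of 8 to 21, which also held the inner starts of CXCR4, with 9 and 14. These inner CXCR4 starts lay in the same 4.26 kb peak as the outer one, so the windows of 1 gene are not separate observations.

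Where the start window lay in the marks followed from the peak edges. All 300 bases of each CXCR4 window were inside H3K4me3 and 0 inside H3K4me1. At S1PR1 244 bases were inside H3K4me3 and all 300 inside H3K4me1, and at CCR4 29 and 300. The windows of CCR9, CXCR3, CXCR5 and ITGAE had 0 bases in H3K4me3 and all 300 in H3K4me1. H3K4me1 was within 1 kb of 8 of the 10 member windows, against 38.0% of all start windows, and the other 2 were CXCR4 starts, the outermost one included.

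Short motifs were searched in the 300-base windows on both strands. A TATA box (TATAAA) was in 2 of the 10 member windows, the outer start of CXCR4 and the inner start of CCR9, against 9.47% of all windows. The E-box CAGNTG, the site of E proteins, was in 7 of 10 against 47.5%, a GC box (GGGCGG) in 3 against 56.3% and a CCAAT box (CCAAT) in 2 against 34.7%. The GATA site, spelled AGATAA, was in 1 member window, that of CCR4, against 7.91% of all windows. The RUNX site, spelled TGTGGT, was in 1, that of CXCR3, against 11.3%. The letters of these motifs do not show binding, and CAGNTG and its reverse CANCTG overlap each other where the middle base allows.

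**Figure D3:**
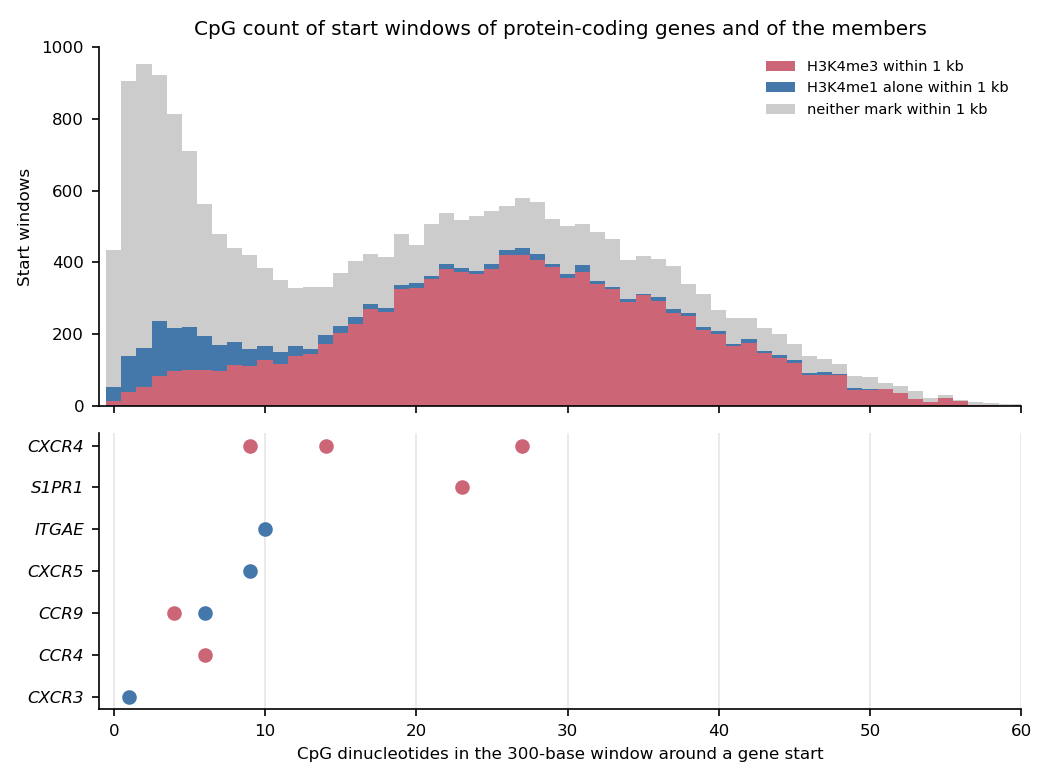
Number of CpG in 300-base start windows. The upper panel stacks all protein-coding start windows by mark within 1 kb (red, H3K4me3; blue, H3K4me1 alone; grey, neither), and the lower panel shows 1 point per start window of each member in the same colours. CCR4 and a start of CCR9 are red with 6 and 4 CpG, and CXCR3 is blue with 1.

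The other genes of these pathways were counted from lists chosen by function. Among 17 other chemokine receptors, H3K4me3 was at 3: CCR10 (1.63 kb, at the end of PLEKHH3), CCR8 (1501 bp), a receptor of skin T cells and regulatory T cells, and ACKR3 (1.41 kb), the scavenging receptor for CXCL12. Another 11 had H3K4me1 alone and 3, ACKR1, ACKR4 and the neutrophil receptor CXCR2, had neither, beside 13.9% and 32.7% of all protein-coding genes. The state of CXCR3 and CXCR5, H3K4me1 alone, was thus the commonest among these 17. Among the receptors without H3K4me3, H3K4me1 peaks were most numerous around XCR1 (19), CCR3 (16) and CCRL2 (14), followed by CCR2 with 12. These 4 genes lie near each other on chromosome 3, and some of their windows overlap. Of the 4 other S1P receptors, S1PR4 (2.99 kb), a receptor of blood cells, and S1PR2 (1.21 kb) had H3K4me3, S1PR5 had H3K4me1 alone and S1PR3 had neither. The 3 of 17 chemokine receptors lay below the 53.4% of all protein-coding genes. The members, which were picked as homing receptors of T cells, lay above it with 6 of 8. Away from the ends of other genes, H3K4me3 was at 2 of the 17 and at 4 of the 8. That share was not computed for all genes.

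Of 14 other adhesion genes, H3K4me3 was at 10 and H3K4me1 at all 14, beside 53.4% and 63.4% of all protein-coding genes. In 2 of the 10, ITGA1 and ITGA2, every H3K4me3 peak lay within 1 kb of an end of another gene, and 8 remained without such peaks. ITGA1 and ITGA2 also had H3K4me3 within 1 kb of an end of their own. The most H3K4me3 was at ITGA4 (5.32 kb), which pairs with ITGB1 or ITGB7, and at ITGAL (4.66 kb), the alpha chain of LFA-1. Next came ITGA1 (4.32 kb, in peaks at the ends of the nested PELO or its antisense gene) and the selectin ligand SELPLG (4.07 kb). ITGB1 (3.04 kb) and ITGA5 (2.19 kb), the chains of the fibronectin receptor, followed. Among those without H3K4me3 were ITGB7, the partner of ITGAE, with 14 H3K4me1 peaks in its window, and the myeloid chains ITGAM and ITGAX with 6 and 5. Neither ITGAE at its own start nor ITGB7 thus had H3K4me3, while H3K4me1 was at both.

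The signalling genes inside the cell and the ligands of the receptors had the highest and the lowest counts of these pathway lists. All 16 signalling and desensitisation genes had H3K4me3, beside 53.4% of all protein-coding genes, and 12 had it away from the ends of other genes. In CORO1A, RHOA, GNB1 and GNAI3 every H3K4me3 peak lay within 1 kb of such an end, which does not tell to which gene it belongs. The most H3K4me3 was at the receptor kinase GRK2 (4.56 kb), CORO1A (4.09 kb, shared with its antisense gene), the inhibitory G protein GNAI2 (4.08 kb), RGS1 (4.07 kb), which damps chemokine signals, the exchange factor DOCK8 (3.39 kb) and RHOA (2.92 kb, at the ends of GPX1 and TCTA). RGS2 was the 1 gene of these with H3K4me3 and no H3K4me1. The 11 ligands of the members, which are made mainly by stromal, epithelial and myeloid cells, had H3K4me3 at 0 and H3K4me1 at 3: CCL17, CDH1 and CCL25. Around S1PR1, the sphingosine kinases SPHK2 (2504 bp) and SPHK1 (0.591 kb) and the lyase SGPL1 (0.985 kb) had H3K4me3. KLF2, the transcription factor known to drive S1PR1, had H3K4me1 alone, with 10 peaks in its window, as did the transporter SPNS2 with 6 and CD69, which pulls S1PR1 off the surface, with 5, and the phosphatase gene PLPP3 had neither.

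**Figure D4:**
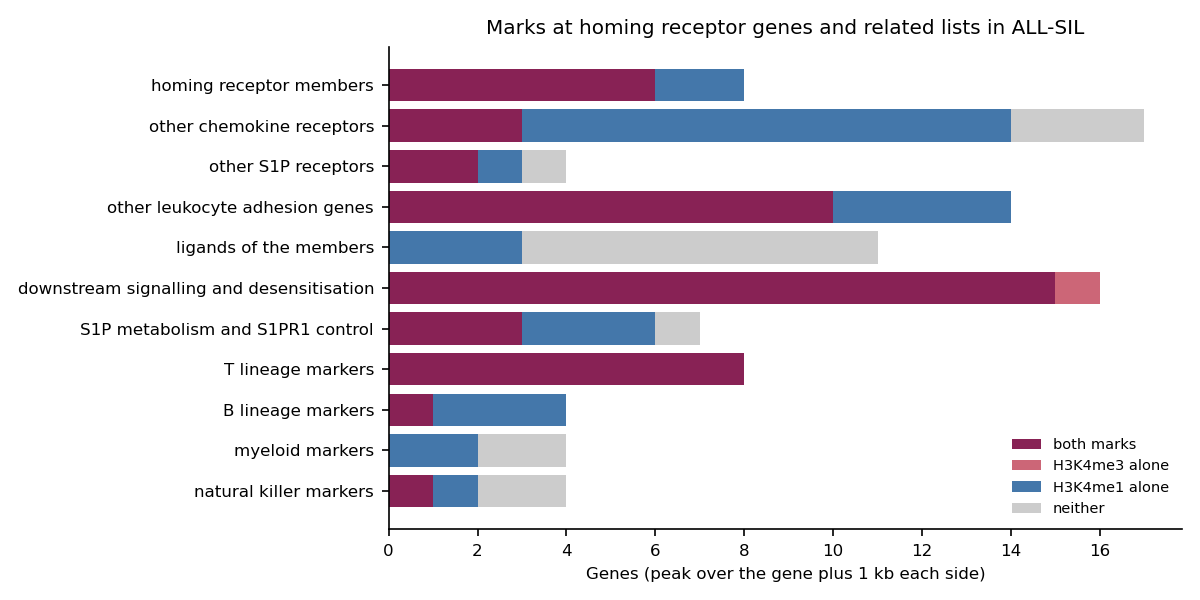
Genes of each list by mark over the gene plus 1 kb on each side. Bars stack the number of genes with both marks, H3K4me3 alone, H3K4me1 alone and neither. All 16 downstream signalling genes carry H3K4me3 and 0 of 11 ligands do, with the 8 members between them at 6.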

How the data were processed

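ChIP-seq peaks of H3K4me1 and H3K4me3 in ALL-SIL were used as deposited. The authors' caller was MACS2 (version 2.1.0.20150731), run on each mark's library in broad mode with a q of 0.1 for broad and 0.05 for strong regions, against the same input library, per the file headers. GRCh38 was the build, per the submitters' processing notes, and how reads were aligned is not given in the sources used here. Each deposited table gave each peak's pileup (a coverage signal), its fold enrichment (a ratio over local background), and the −log10 of p and q, each averaged over the region. The interval lists were not used. In a broad region such a mean can fall below the q limit of the call.

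Genes were RefSeq spans of GRCh38.p14 (20037 protein-coding and 18303 lncRNA genes on the main chromosomes), and strands and start sites came from the RefSeq start windows, which covered 15843 of the protein-coding genes. Marks were counted from 1 bp of overlap over the gene plus 1 kb, and coverage over the gene plus 50 kb, with Python 3.11.15, pandas 2.3.3 and numpy 2.4.6. The CpG bands are quartiles of the start windows. Overlap counting was tested on simulated data. Members and lists were chosen with earlier results of these data known. Every member is named, and in other lists up to 6 genes with the most H3K4me3 and up to 4 without it with the most H3K4me1 peaks, with ties, apart from some that are not reported here. Where a count of bases or genes is given, 1 library stands behind it.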

Additional observations from a re-analysis of the deposited data

How the results depend on the processing

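H3K4me3 stayed at 6 members with no reach beyond the gene, with a reach of 2.5 kb and with an overlap of at least 200 bp, and was at 4 within 1 kb of either gene end (without CCR9 and ITGAE), at 4 of 7 within 1 kb of a RefSeq start, at 4 among peaks at or above the median fold (without CXCR4 and CCR9) and at 3 where a −log10 q of 10 or more was required. Leaving out peaks at the end of another protein-coding gene gave 5, and of any other protein-coding or lncRNA gene 4, both chosen after seeing the data. H3K4me1 was at 0 members with that q limit, which 1750 of 62087 H3K4me1 peaks passed, and at 3 with the median fold. The H3K4me3 count of 15 of 35 other receptor and adhesion genes became 7 and 9 with these limits. The median share of the window under H3K4me1 (32.7%) was 43.2% and 25.4% with windows of 25 and 100 kb, 0 with the q limit, 6.48% with the median fold and 20.2% without peaks at other genes' ends. The median of 10 H3K4me1 peaks became 5.5, 18.5, 0, 3 and 9.5 in the same order. The median H3K4me3 length over members of 1494 bp became 0, 501 and 336 bp with the q limit, the median fold and without peaks at other genes' ends. These limits keep fewer peaks by construction, and no other cause was tested. The shares of all protein-coding genes with each mark at the q and median fold limits were not computed. Of 104 values of single members recomputed this way, 48 stayed within 1.5 times. What depth limits was not tested. No paired analysis was possible because each mark has 1 library.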

Other observations

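Several related genes outside the 8 members also lay in long stretches of H3K4me1. RAC2, a small GTPase of blood cell movement, had 54.2% of its window covered, the skin homing receptor CCR8 46.5%, ITGAL 36.8%, ITGB7 35.4% and S1PR4 35.3%. CCR6, a receptor of mucosal and inflammatory T cells, had 1.65%, and CXCR1 and CXCR2, receptors of neutrophils, had 0.829% and 0.771%. The ligands of the members had a median of 1.37% and the other chemokine receptors of 14.5%, against 3.98% over all protein-coding genes. The other adhesion genes had a median of 20.8% and the 8 T-lineage markers of 29.7%, close to the 32.7% of the members. With 1 library these differences were not tested.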
